A study of Homo sapiens with 9 samples.

Results

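Annexins, S100 proteins and calpains are calcium-regulated proteins that work at membranes and the cortical cytoskeleton, and 10 of their genes are described here: ANXA1, ANXA2, ANXA3 and ANXA5, S100A6, S100A10 and S100A11, and the calpain genes CAPN1, CAPN2 and CAPNS1. They were taken by gene symbol from a count table of 56312 genes or entries, and all 10 were among the 24187 genes expressed highly enough to be tested. The families were selected on the differences in expression already seen between these groups, so the values of the 10 genes describe them and are not a test of them. The cells were wild-type HNES1, a human naive pluripotent stem cell line made from cells of an embryo's inner cell mass, grown on mouse embryonic fibroblast feeders before they were seeded on Geltrex for the experiment. RNA was sequenced on day 5 after the naive medium was withdrawn, when the cells were on the way to a primed-like state in basal medium with the tankyrase inhibitor XAV939. The 3 groups of 3 libraries were UNC6852 at 2.5 µM (group PROTAC), UNC1999 at 1 µM (group UNC) and an equal volume of DMSO. UNC6852 is a bifunctional degrader that brings EED, a subunit of Polycomb repressive complex 2, to the VHL ubiquitin ligase, and UNC1999 inhibits the catalytic subunits EZH2 and EZH1 of the same complex. Compound or vehicle was present from before withdrawal and renewed daily.

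Annexins bind phospholipids when calcium is present, and several pair with an S100 protein: a dimer of S100A10 joins ANXA2 in a tetramer, and S100A11 binds ANXA1. Calpains are calcium-activated cysteine proteases that cut cytoskeletal and adhesion proteins, with CAPN1 and CAPN2 as alternative catalytic subunits, CAPNS1 as their shared small subunit and calpastatin as their inhibitor. Annexins, S100 proteins and calpains are known for the resealing of torn plasma membranes, and in early human development several of them are abundant in trophoblast and other epithelia.

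Levels are given as CPM, read counts scaled to a common library size with TMM factors, per library in the order of the replicate numbers, and differences as log2 fold changes with their standard error (SE). The 10 genes fall into a set whose mean level in UNC was lower than in the other groups (ANXA1, ANXA3, S100A6 and CAPN2), a pair that was higher in both compound groups than in DMSO (ANXA5 and S100A11), and a set of 4 whose fitted log2 differences lay between -0.09 and 0.11 in every comparison (ANXA2, S100A10, CAPN1 and CAPNS1). Of the first set, ANXA3 alone overlapped between UNC and PROTAC. CAPN2 lay at 63.3% of its DMSO mean in UNC, while its partner CAPNS1 and its paralog CAPN1 stood at like levels in all groups.

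Promoter windows are printed for the 4 genes that were lower in UNC, ANXA1, ANXA3, S100A6 and CAPN2, with ANXA2 for comparison. They are the 250 bases before an annotated start in RefSeq (GRCh38.p14), written 5′ to 3′ on the strand of the gene. Capitals mark TGANTCA (the AP-1 motif, TGACTCA or TGAGTCA, widened to any middle base), the CArG box of serum response factor by its name, GGGCGG (the GC box) and TATAAA, searched on both strands. The windows are chr9:73151615-73151864 on the plus strand for ANXA1, chr4:78551520-78551769 on the plus strand for ANXA3, chr1:153535992-153536241 on the minus strand for S100A6 and chr15:60397987-60398236 on the minus strand for ANXA2. CAPN2 has an upstream start with the window chr1:223701347-223701596 and a downstream start with the window chr1:223712289-223712538, both on the plus strand.
ANXA1: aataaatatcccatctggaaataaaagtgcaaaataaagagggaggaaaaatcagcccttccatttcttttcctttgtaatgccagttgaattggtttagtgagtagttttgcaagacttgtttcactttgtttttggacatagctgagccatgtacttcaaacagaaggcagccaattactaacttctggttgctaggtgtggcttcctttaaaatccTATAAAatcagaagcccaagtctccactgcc
ANXA3: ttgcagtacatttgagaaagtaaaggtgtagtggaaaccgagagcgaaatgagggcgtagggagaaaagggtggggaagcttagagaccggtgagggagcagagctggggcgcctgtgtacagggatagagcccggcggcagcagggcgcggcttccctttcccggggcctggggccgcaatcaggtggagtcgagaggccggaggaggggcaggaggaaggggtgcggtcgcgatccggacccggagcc
S100A6: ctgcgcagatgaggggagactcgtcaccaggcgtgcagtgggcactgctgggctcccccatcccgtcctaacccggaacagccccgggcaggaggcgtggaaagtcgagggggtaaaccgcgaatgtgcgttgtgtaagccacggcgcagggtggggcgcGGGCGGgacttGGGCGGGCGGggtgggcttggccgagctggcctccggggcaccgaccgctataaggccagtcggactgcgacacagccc
CAPN2 upstream start: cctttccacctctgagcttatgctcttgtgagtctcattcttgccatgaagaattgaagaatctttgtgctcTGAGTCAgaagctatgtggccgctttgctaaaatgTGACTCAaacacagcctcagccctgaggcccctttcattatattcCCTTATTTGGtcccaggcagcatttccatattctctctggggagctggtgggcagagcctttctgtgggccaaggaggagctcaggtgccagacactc
CAPN2 downstream start: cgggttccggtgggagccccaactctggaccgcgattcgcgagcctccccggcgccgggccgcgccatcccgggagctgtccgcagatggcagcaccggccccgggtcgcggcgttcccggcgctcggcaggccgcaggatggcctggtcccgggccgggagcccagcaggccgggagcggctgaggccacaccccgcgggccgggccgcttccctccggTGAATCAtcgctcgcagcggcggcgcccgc
ANXA2: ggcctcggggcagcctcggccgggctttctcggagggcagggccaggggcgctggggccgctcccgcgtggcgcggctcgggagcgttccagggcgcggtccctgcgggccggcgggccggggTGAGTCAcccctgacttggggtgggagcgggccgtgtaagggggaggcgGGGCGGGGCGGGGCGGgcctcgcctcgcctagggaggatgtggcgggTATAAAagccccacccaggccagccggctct

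The windows of ANXA1 and of the upstream CAPN2 start were poor in CpG. The ANXA1 window held 0 CpG dinucleotides, and that of the upstream CAPN2 start held 1, with an observed-to-expected CpG ratio of 0.0642, against a median of 0.558 over 35116 promoter windows. The downstream CAPN2 start (ratio 0.954), ANXA3 (0.818), S100A6 (0.803) and ANXA2 (0.770) lay above that median, so the genes lower in UNC differed among themselves, and the ANXA3 window held none of the motifs searched. Counts are per gene, so they do not tell which CAPN2 start was used. Of the 14 windows of the 10 genes, 3 held TGANTCA (both starts of CAPN2 and ANXA2), against 6.57% of all promoter windows. At the downstream CAPN2 start the match was TGAATCA, which is neither TGACTCA nor TGAGTCA. The CArG box was in 1 of the 14, the upstream start of CAPN2, where 2 copies of TGANTCA also lie, and in 1.16% of all windows. GGGCGG was in 9 of the 14 windows and 42.6% of all, TATAAA in 2 (ANXA1 and ANXA2) and 10.7% of all. The windows of the 10 genes held no GGAATG, the core letters bound by TEAD factors (0 of 14, against 11.9% of all), and no CACGTG, the E-box (0 of 14, against 6.34% of all). A match or its lack describes these letters in these windows only.

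Per kilobase of exon, the 10 genes spanned a wide range of levels. S100A11 stood highest at 213 ± 27.1 CPM per kb, followed by S100A10 at 89.6 ± 7.29, ANXA5 at 47.5 ± 4.99 and CAPNS1 at 30.0 ± 2.63 CPM per kb (SD over all 9 libraries). ANXA2 at 15.04 ± 1.08 and CAPN1 at 14.01 ± 0.807 CPM per kb overlapped in their libraries, as did ANXA3 at 5.23 ± 1.53 and S100A6 at 3.96 ± 1.39, S100A6 and ANXA1 at 2.39 ± 0.979, and ANXA1 and CAPN2 at 2.08 ± 0.468. The neighbours above ANXA2 in this order did not overlap, nor did CAPN1 and ANXA3. Exon lengths are unions of annotated exons in GENCODE 29, which may not be the annotation the authors counted on. A union joins the exons of all annotated transcripts and can exceed the transcript expressed, so this order depends on it (8824 bases for ANXA2, 8792 for CAPN2, 3034 for ANXA5). In mean CPM without length, ANXA2 (133) lay near ANXA5 (144), and CAPN2 (18.3) lay above ANXA1 (10.9) and S100A6 (3.84). The genes lower in UNC were thus the 4 with the lowest levels per length of the 10. The highest library had 3.63 times the lowest for ANXA1, 3.06 times for S100A6, 2.95 times for ANXA3 and 1.85 times for CAPN2, against 1.20 times for CAPN1. The lowest library was in UNC for all 4, so these ratios include the difference by which the set was named. By group alone, the coefficient of biological variation was 16.8% for ANXA1, 17.2% for S100A6 and 19.6% for ANXA3. For CAPN2 it was 8.96%, near the 9.02% of CAPNS1.

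**Figure D1:**
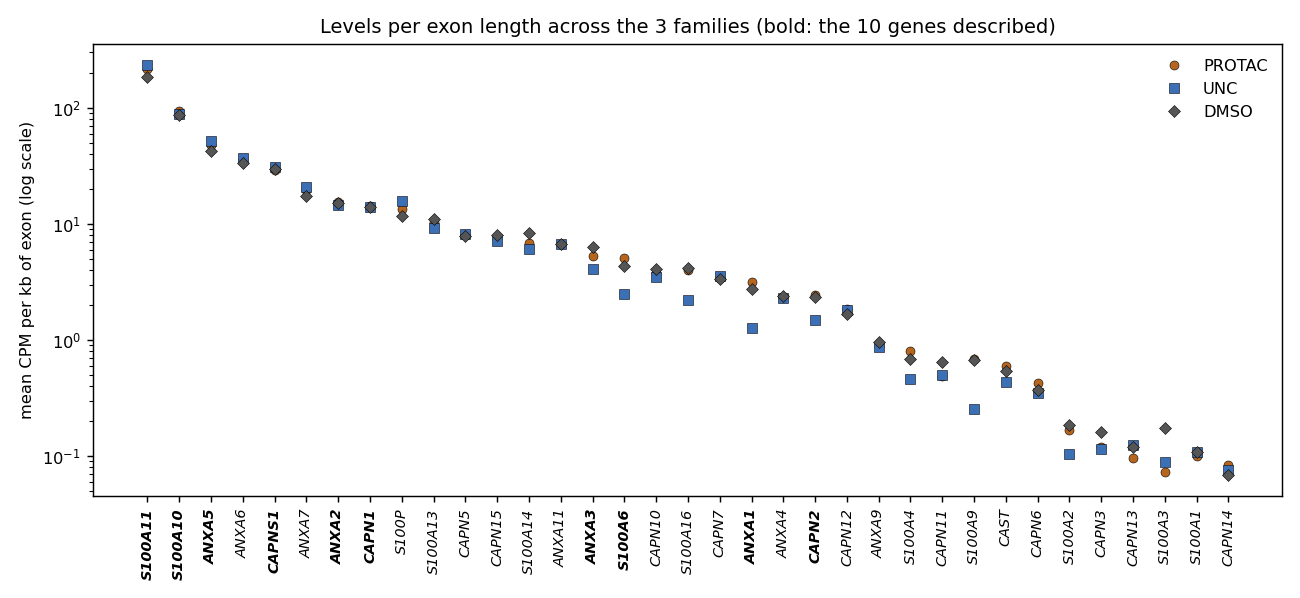
Mean CPM per kb of exon (log scale) of annexin, S100 and calpain genes in PROTAC, UNC and DMSO (n = 3 each), ordered by the mean of all libraries, for genes at 0.05 CPM per kb or more. Names of the 10 genes described are in bold: S100A11 at 213 CPM per kb leads and CAPN2 at 2.08 is the lowest of them, with the UNC mark below the others for ANXA1, ANXA3, S100A6 and CAPN2.

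Among the annexins, ANXA1 and ANXA3 had their lowest libraries in UNC. ANXA1 (ENSG00000135046, GRCh38 chr9:73151865-73170629, plus strand) encodes a glucocorticoid-induced annexin known for damping inflammation and for membrane repair. It was at 16.4, 10.3 and 16.4 CPM in PROTAC, at 6.12, 6.55 and 4.53 CPM in UNC, and at 10.5, 12.9 and 14.4 CPM in DMSO. All 3 UNC libraries lay below all others, while PROTAC and DMSO overlapped. The difference was -1.14 (SE 0.195) for UNC against DMSO, 0.19 (SE 0.189) for PROTAC against DMSO and 1.33 (SE 0.196) for PROTAC against UNC. In a bulk sample, fewer cells that express a gene and less RNA of it per cell cannot be told apart.

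ANXA3 (ENSG00000138772, chr4:78551747-78610451, plus strand), known for promoting blood vessel growth, was lowest at number 1 in every group. It was at 22.7, 26.5 and 32.7 CPM in PROTAC, at 14.5, 24.0 and 23.7 CPM in UNC, and at 24.4, 29.5 and 42.9 CPM in DMSO. UNC was just clear of DMSO, 24.0 against 24.4 CPM at the closest, but overlapped with PROTAC. Within each number UNC was lowest and DMSO highest. The log2 ratios of UNC to DMSO within a number were -0.75, -0.30 and -0.85, and the fitted difference was -0.64 (SE 0.229) by group alone and -0.64 (SE 0.0846) with the replicate number as a block. PROTAC against UNC differed by 0.39 (SE 0.230) by group alone and by 0.42 (SE 0.0852) with the block. For PROTAC against DMSO the difference was -0.25 (SE 0.228) by group alone, with ratios within a number of -0.11, -0.16 and -0.39.

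ANXA5 (ENSG00000164111, chr4:121667946-121696995, minus strand), the annexin that forms a lattice on exposed phosphatidylserine and serves as a probe for dying cells, went the other way. It was at 144, 146 and 145 CPM in PROTAC, at 146, 170 and 159 CPM in UNC, and at 118, 137 and 131 CPM in DMSO. Every library of either compound lay above every DMSO library. The difference was 0.18 (SE 0.0759) for PROTAC against DMSO and 0.30 (SE 0.0759) for UNC against DMSO, and within a number the UNC to DMSO ratios were 0.31, 0.31 and 0.28.

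ANXA2 (ENSG00000182718, chr15:60347134-60402883, minus strand), the heavy chain of the tetramer with S100A10 and a linker of membranes to actin, was level. It was at 146, 135 and 131 CPM in PROTAC, at 125, 132 and 129 CPM in UNC, and at 118, 131 and 148 CPM in DMSO. The 3 groups overlapped, with the lowest and the highest library both in DMSO. Its differences were 0.05 for PROTAC against DMSO, -0.04 for UNC against DMSO and 0.10 for PROTAC against UNC (SE 0.0829 each).

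Of the S100 genes, S100A6 was lower in UNC, S100A11 higher in both compound groups, and S100A10 level. S100A6 (ENSG00000197956, chr1:153534599-153536244, minus strand), also called calcyclin, is a marker of proliferating and of mesenchymal or epithelial cells. It was at 6.46, 4.31 and 3.94 CPM in PROTAC, at 2.78, 2.29 and 2.11 CPM in UNC, and at 4.78, 4.10 and 3.82 CPM in DMSO. No UNC library overlapped with another group, and number 1 was the highest library in each group. The difference was -0.82 (SE 0.201) for UNC against DMSO and 1.04 (SE 0.20) for PROTAC against UNC, and the UNC to DMSO ratios within a number were -0.77, -0.83 and -0.85. PROTAC against DMSO was 0.22 (SE 0.196), with 0.43 within number 1 but 0.07 and 0.05 within the others.

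S100A11 (ENSG00000163191, chr1:152032506-152047907, minus strand), the S100 partner of ANXA1, was at 148, 148 and 145 CPM in PROTAC, at 140, 161 and 180 CPM in UNC, and at 116, 134 and 129 CPM in DMSO. Every library of either compound was above every DMSO library, by 0.22 (SE 0.0879) for PROTAC and 0.34 (SE 0.0879) for UNC. Its profile over the 9 libraries was nearest to that of ANXA5 among all pairs of the 10 genes: the centred log2 values differed by a root mean square of 0.0698. It was farthest from that of its partner ANXA1, at 0.741. As counts within a library, S100A6 came to 3.33% ± 0.892 of S100A11 in PROTAC, 1.53% ± 0.413 in UNC and 3.38% ± 0.641 in DMSO (SD, n = 3 each).

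S100A10 (ENSG00000197747, chr1:151982915-151993859, minus strand), the light chain that docks on ANXA2, was at 163, 142 and 127 CPM in PROTAC, at 133, 143 and 137 CPM in UNC, and at 126, 143 and 131 CPM in DMSO. The groups overlapped, with differences of 0.11 for PROTAC against DMSO, 0.05 for UNC against DMSO and 0.07 for PROTAC against UNC (SE 0.0873, 0.0873 and 0.0872). Its counts came to 105% ± 6.91 of those of ANXA2 in PROTAC, 107% ± 0.762 in UNC and 101% ± 11.1 in DMSO (SD, n = 3 each), a ratio of reads and not of molecules, since ANXA2 is the longer gene.

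In the calpains, CAPN2 alone of the 3 genes had a group that stood clear of the others. CAPN2 (ENSG00000162909, chr1:223701593-223776018, plus strand) encodes the catalytic subunit of m-calpain, which needs more calcium than the enzyme with CAPN1. It was at 20.0, 22.8 and 21.1 CPM in PROTAC, at 12.3, 13.8 and 12.8 CPM in UNC, and at 19.0, 20.9 and 21.7 CPM in DMSO. The UNC libraries lay together and below all others, while PROTAC and DMSO overlapped. The difference was -0.66 (SE 0.0938) for UNC against DMSO, 0.72 (SE 0.0939) for PROTAC against UNC and 0.05 (SE 0.0928) for PROTAC against DMSO. Within a number, PROTAC exceeded UNC by 0.70, 0.72 and 0.72, and UNC differed from DMSO by -0.62, -0.59 and -0.76.

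CAPN1 (ENSG00000014216, chr11:65180566-65212006, plus strand), the catalytic subunit of µ-calpain, was at 102, 113 and 108 CPM in PROTAC, at 94.5, 111 and 110 CPM in UNC, and at 101, 111 and 103 CPM in DMSO. CAPNS1 (ENSG00000126247, chr19:36139953-36150353, plus strand), the small subunit that stabilises both enzymes, was at 100, 108 and 95.8 CPM in PROTAC, at 92.9, 115 and 116 CPM in UNC, and at 92.6, 110 and 107 CPM in DMSO. The groups overlapped for both genes. CAPN1 differed by 0.04 in PROTAC against DMSO, 0.00 in UNC against DMSO and 0.04 in PROTAC against UNC, and CAPNS1 by -0.02, 0.07 and -0.09, with SE from 0.0776 to 0.0960. The sign of so small a value turned with the scaling for CAPN1 in UNC against DMSO. Read within each library, which needs no scaling, CAPN2 counts were 19.6%, 20.1% and 19.5% of CAPN1 counts in PROTAC, 13.02%, 12.5% and 11.7% in UNC, and 18.8%, 18.9% and 21.1% in DMSO. The ratio was thus lower in all 3 UNC libraries than in any other library.

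**Figure D2:**
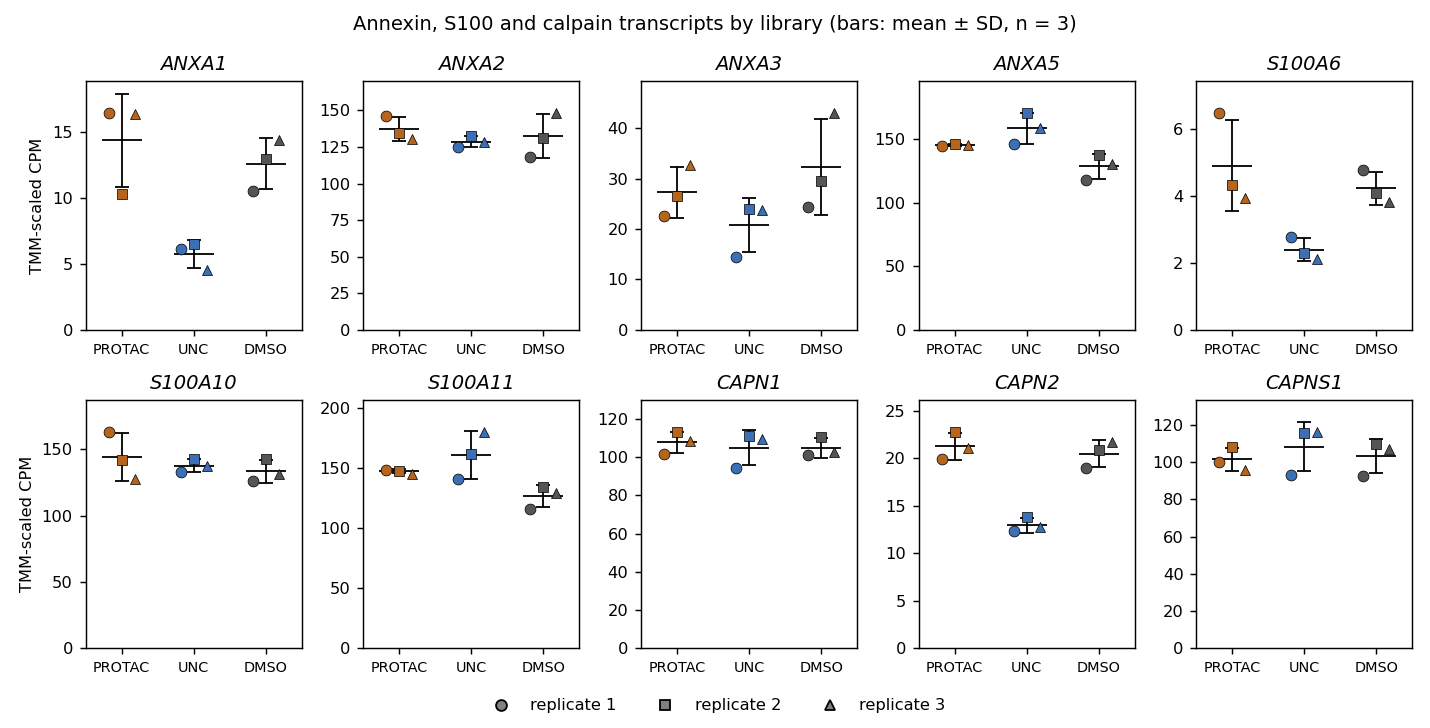
TMM-scaled CPM of each of the 10 genes in every library of PROTAC, UNC and DMSO, with a panel per gene and an axis from 0; symbols give the replicate number and bars the mean ± SD (n = 3). UNC sits below the other groups for ANXA1 (4.53 to 6.55 CPM), S100A6 (2.11 to 2.78 CPM) and CAPN2 (12.3 to 13.8 CPM), and DMSO below the others for ANXA5 and S100A11.

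In the fit across all 24187 genes by group alone, with edgeR's quasi-likelihood test at a false discovery rate of 0.05, 2 of the 10 genes were called lower in UNC than in DMSO (ANXA1 and CAPN2), where 0.719% of all genes were called and 0.401% were called lower. PROTAC against DMSO gave 0 calls among all genes (1200 genes had an unadjusted p under 0.05, 2 of the 10 among them, and DESeq2 called 20 genes). PROTAC against UNC gave 2 calls among all genes (0.00827%), CAPN2 and IMPDH1, the rate-limiting enzyme of guanine nucleotide synthesis. The median difference of the 10 genes was 0.08 for PROTAC against DMSO, -0.02 for UNC against DMSO and 0.08 for PROTAC against UNC, beside -0.01 for all genes in each. Groups did not overlap in UNC against DMSO for 6 of the 10 genes (17.4% of all genes), 4 of them lower (9.07%) and 2 higher (8.34%). In PROTAC against DMSO they did not overlap for 2, both higher (11.5% of all genes, 6.07% higher), and in PROTAC against UNC for 4 (9.09%), with ANXA1, S100A6 and CAPN2 higher (5.16%) and ANXA5 lower (3.93%). Because the 10 genes were chosen with these comparisons known, nothing is read from the counts. Without DMSO 3 or without UNC 3 the CAPN2 call in UNC against DMSO was lost, at -0.62 and -0.65. The ANXA1 call was lost without DMSO 2, DMSO 3 or UNC 3, at -1.12, -1.04 and -0.99, and the CAPN2 call in PROTAC against UNC was lost without each of the 9 libraries in turn, at 0.66 to 0.76. Calls in UNC against DMSO were gained for ANXA5 (0.36) and S100A11 (0.43) without UNC 1, and for S100A6 (-0.82) without PROTAC 1.

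With the replicate number as a block, 5 of the 10 genes were called in UNC against DMSO, where 13.5% of all genes were: ANXA3, S100A6 and CAPN2 lower (6.46% of all genes), ANXA5 and S100A11 higher (7.04%). ANXA1 was no longer called, its ratios within a number being -0.78, -0.98 and -1.66. In PROTAC against DMSO, where 2.99% of all genes were called and 2.01% were called higher, ANXA5 (0.18, SE 0.0514) and S100A11 (0.22, SE 0.0570) were called higher. In PROTAC against UNC, where 2.91% were called and 2.17% were called higher, ANXA3, S100A6 and CAPN2 were called higher in PROTAC. Leaving out any library kept the 5 calls of UNC against DMSO, and ANXA1 was called too without PROTAC 2, UNC 2 or UNC 3. In PROTAC against DMSO, ANXA5 kept its call without PROTAC 2 and lost it without any other library, its difference being 0.12 to 0.23. S100A11 lost its call without DMSO 1, DMSO 3, PROTAC 1, PROTAC 2 or UNC 2, its difference over all left-out libraries being 0.14 to 0.28. In PROTAC against UNC, ANXA3 lost its call without UNC 1 or UNC 3, over a range of 0.34 to 0.57. Calls were gained there for ANXA1 without PROTAC 2 (1.58, and 1.52 by group alone) or UNC 3 (1.09), and for S100A11, lower in PROTAC, without PROTAC 1 (-0.20).

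**Figure D3:**
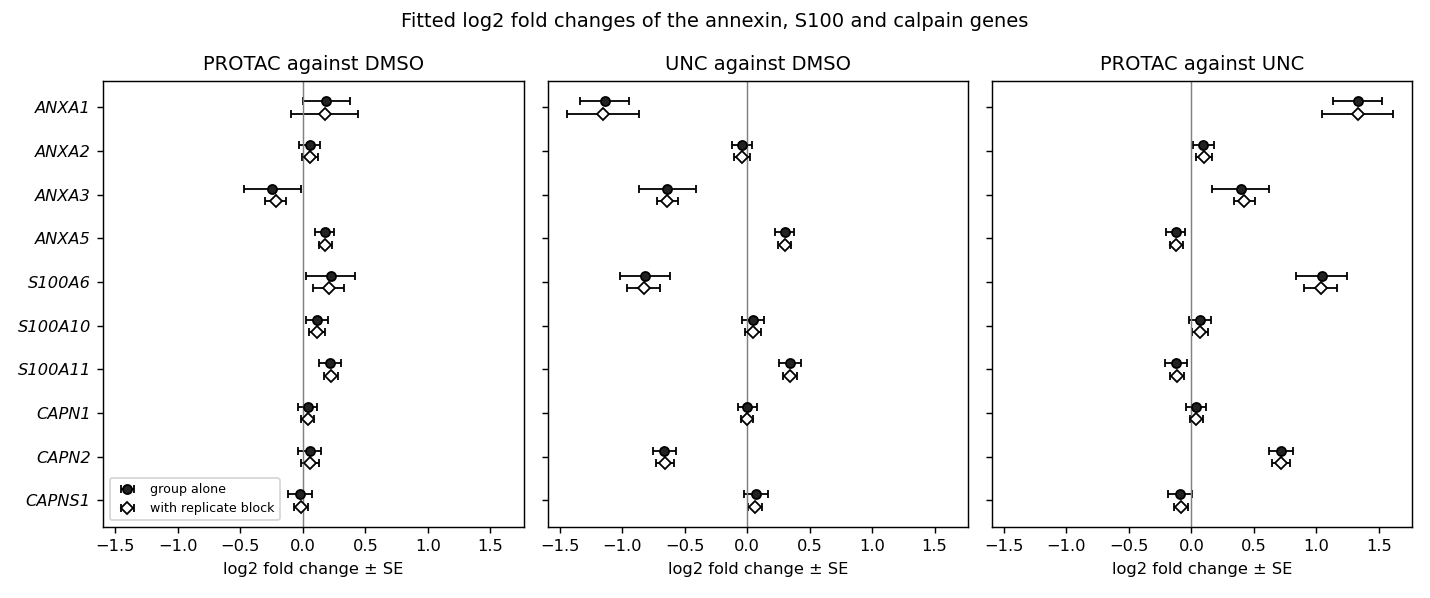
Fitted log2 fold changes ± SE of the 10 genes for PROTAC against DMSO, UNC against DMSO and PROTAC against UNC, by group alone (filled) and with the replicate number as a block (open). CAPN2 lies at -0.66 in UNC against DMSO and at 0.05 in PROTAC against DMSO, and the block narrows most of the error bars but widens that of ANXA1.

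**Figure D4:**
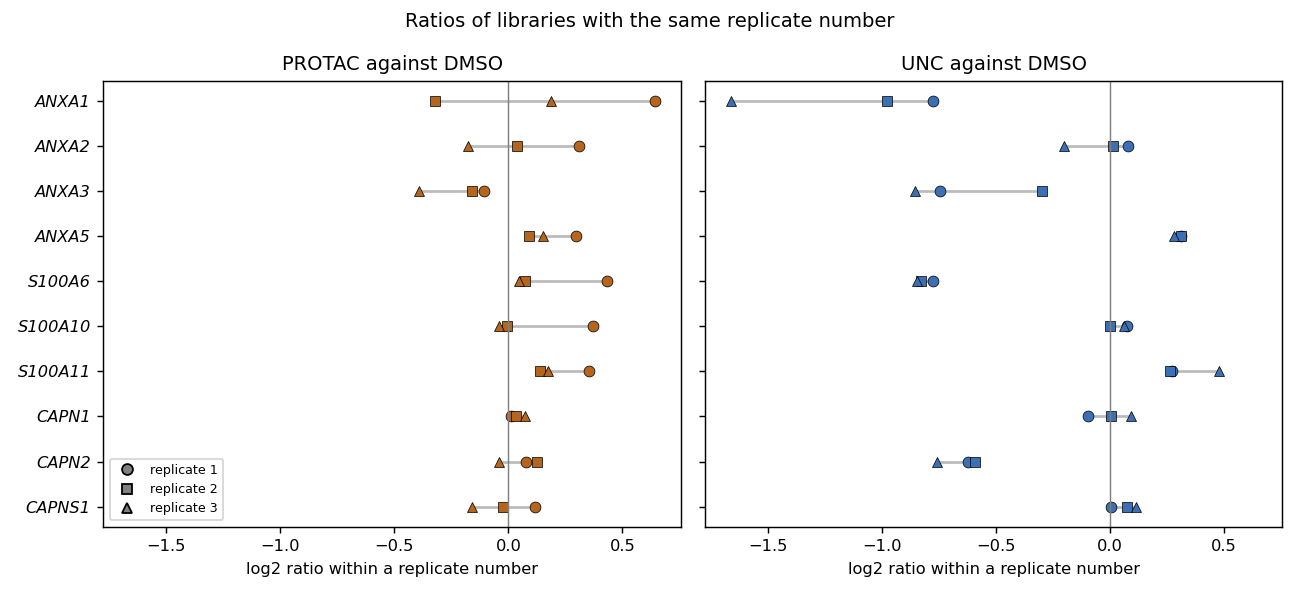
Log2 ratio of each PROTAC or UNC library to the DMSO library of the same replicate number for the 10 genes; symbols give the number and lines span the 3 ratios. The UNC ratios of S100A6 (-0.85 to -0.77) and CAPN2 (-0.76 to -0.59) lie close together, and those of ANXA1 (-1.66 to -0.78) spread widely.

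The other genes of the 3 families gave a wider view. Of 41 listed, 40 were found in the table and 24 were tested: 5 annexins, 8 S100 genes and 11 calpain genes with the inhibitor calpastatin. By group alone, where 0.401% of all genes were called lower in UNC against DMSO, 1 of the 24 was called. It was S100A16, a broadly expressed S100 gene, at -0.93 (SE 0.123, edgeR adjusted p = 0.00659). It was at 7.36, 6.32 and 6.75 CPM in PROTAC, at 3.66, 4.08 and 3.55 CPM in UNC, and at 7.08, 7.45 and 6.93 CPM in DMSO. UNC did not overlap with either group, and the call remained without each of the 9 libraries, at -0.99 to -0.89. With the block, 2 of the 24 rose and 6 fell, where 7.04% of all genes rose and 6.46% fell. S100P (0.40, adjusted p = 0.000271) and ANXA7 (0.26, adjusted p = 0.00129), an annexin of secretory vesicles, rose. S100A16 (-0.94, adjusted p = 8.28e-08), S100A14 (-0.47, adjusted p = 0.000696), the calpastatin gene CAST (-0.32, adjusted p = 0.0274), S100A13 (-0.25, adjusted p = 0.00827), CAPN10 (-0.23, adjusted p = 0.0153) and CAPN15 (-0.18, adjusted p = 0.0292) fell. The median of the 24 was -0.11 in UNC against DMSO, beside -0.01 for all genes.

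Calpastatin was at 7.70, 7.50 and 7.26 CPM in PROTAC, at 5.38, 5.84 and 5.01 CPM in UNC, and at 6.60, 7.06 and 6.60 CPM in DMSO, from the larger of 2 entries with that symbol. Like CAPN2, this entry was lowest in UNC. The smaller entry is not described here, so these values may not cover all reads of the gene. For PROTAC against DMSO 0 of the 24 were called in either fit (0 at an unadjusted p under 0.05 by group alone, 3 with the block, and 0 called by DESeq2). The shares of all genes at that p were 4.96% by group alone and 15.9% with the block. Of all genes 0% were called by group alone and 2.99% with the block, so nothing is read from the 0 of 24. PROTAC against UNC gave 0 calls by group alone (3 at an unadjusted p under 0.05, and 2 called by DESeq2), and with the block S100A16 (0.87, adjusted p = 1.16e-06) and CAST (0.47, adjusted p = 0.00324) were higher in PROTAC. There 4.70% of all genes had such an unadjusted p by group alone and 0.00827% were called, and 2.17% were called higher with the block. ANXA6 was the most abundant of the other annexins per kilobase, at 36.1 CPM per kb in PROTAC, 36.9 in UNC and 33.7 in DMSO. ANXA10, ANXA13, S100A7, S100A8 and S100A12 had no count in any library.

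**Figure D5:**
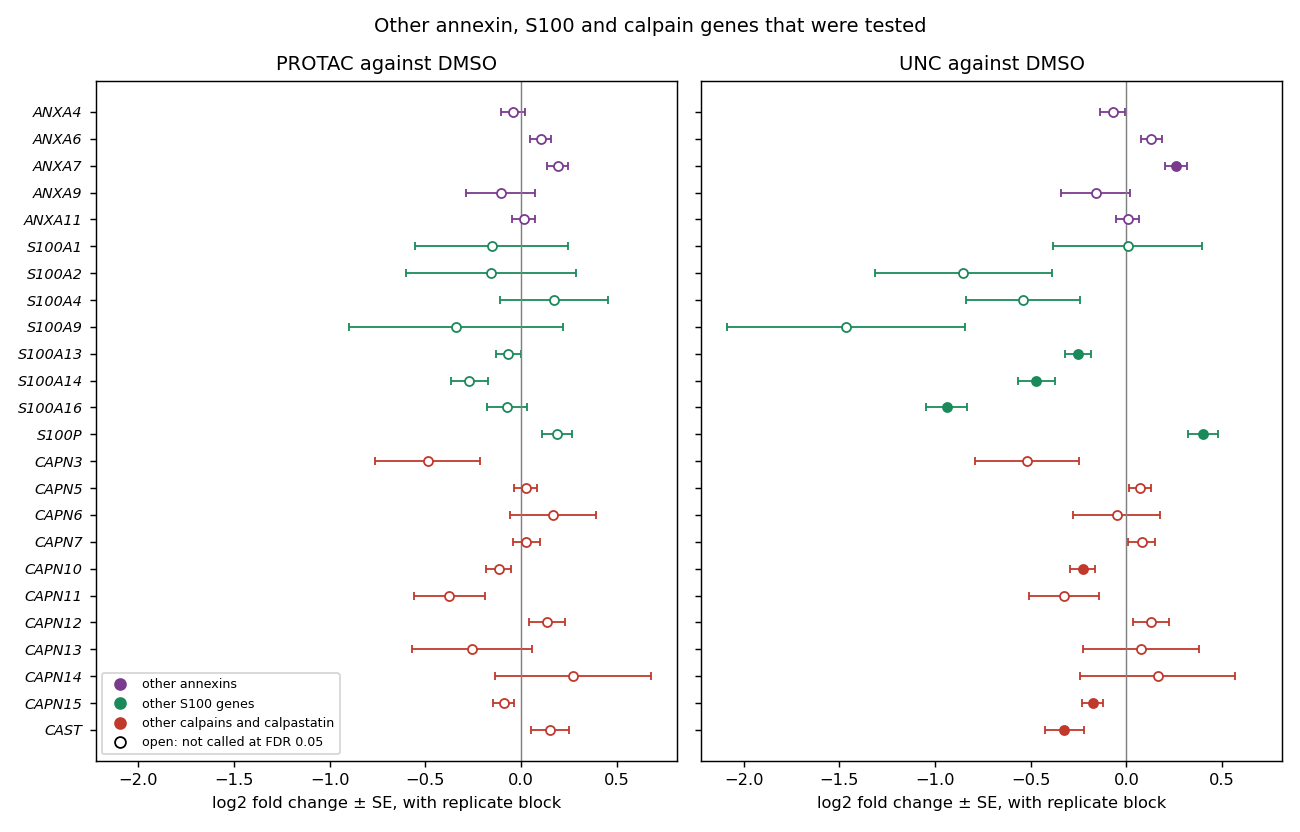
Log2 fold changes ± SE of the 24 other annexin, S100 and calpain genes tested, for PROTAC against DMSO and UNC against DMSO, with the replicate number as a block; filled marks are called at a false discovery rate of 0.05. In UNC against DMSO S100A16 is the lowest filled mark at -0.94 and S100P the highest at 0.40. In PROTAC against DMSO, where 2.99% of all genes were called, all 24 marks are open.

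On chromosome 1 the S100A genes form a cluster, with 16 of them over 1652 kb. S100A10 and S100A11, level or higher in UNC, lie 38.6 kb apart at its start, and 1487 kb separates S100A11 from S100A6. S100A6, called lower with the block, lies towards the other end. S100A16, S100A14 and S100A13, the other genes of the cluster that fell in the block fit, follow from 70.6 kb beyond it. The tested S100A9, S100A4, S100A2 and S100A1 lie in the same stretch and were not called, with block differences of -1.47, -0.54, -0.85 and 0.005. S100A14 was at 8.50, 9.25 and 8.39 CPM in PROTAC, at 6.11, 8.49 and 8.78 CPM in UNC, and at 9.21, 10.8 and 12.2 CPM in DMSO. S100A13 was at 22.2, 24.5 and 22.6 CPM in PROTAC, at 19.3, 21.4 and 20.3 CPM in UNC, and at 23.5, 24.2 and 25.0 CPM in DMSO. Both had all UNC libraries below all DMSO libraries, and S100A13 all UNC libraries below all PROTAC libraries too. S100P, which rose, is not in this cluster.

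All 15 genes on the list of annexin partners and membrane repair were tested. With the block 3 rose and 3 fell in UNC against DMSO, where 7.04% of all genes rose and 6.46% fell. By group alone 1 rose and 1 fell, where 0.719% of all genes were called. DYSF, which encodes dysferlin, the muscle membrane repair protein that binds annexins, rose by 0.32 (SE 0.0638, adjusted p = 0.0417), at 61.4, 64.2 and 62.0 CPM in PROTAC, 70.0, 70.1 and 74.3 CPM in UNC, and 55.5, 58.8 and 57.5 CPM in DMSO. CAV1, the coat protein of caveolae, fell by 1.10 (SE 0.205, adjusted p = 0.0372), at 18.6, 11.7 and 12.9 CPM in PROTAC, 11.5, 7.42 and 6.94 CPM in UNC, and 20.6, 17.6 and 17.6 CPM in DMSO. For DYSF the 3 groups did not overlap at all, in the order UNC, PROTAC, DMSO. Its call by group alone remained only without UNC 1 (range over left-out libraries 0.29 to 0.34), and that of CAV1 only without PROTAC 1, PROTAC 2 or UNC 1 (-1.37 to -0.96). With the block both calls held without each library in turn, CHMP4C (0.44, adjusted p = 0.00575) and PDCD6IP (0.15, adjusted p = 0.0473) of the ESCRT machinery rose too, and MYOF (-0.66, adjusted p = 0.00383), a relative of dysferlin, and AHNAK (-0.44, adjusted p = 1.65e-05), a scaffold that binds the ANXA2 tetramer, fell. AHNAK was at 262, 261 and 239 CPM in PROTAC, at 225, 235 and 173 CPM in UNC, and at 277, 292 and 287 CPM in DMSO. CAV1 alone of the 15 fell in PROTAC against DMSO with the block (-0.39, adjusted p = 0.00735), where 2.99% of all genes were called. Between the compounds the block fit gave 3 higher in PROTAC than in UNC, CAV1 (0.74, adjusted p = 7.21e-07), MYOF (0.68, adjusted p = 0.00925) and AHNAK (0.27, adjusted p = 0.011), and DYSF lower (-0.19, adjusted p = 0.0329). That fit called 2.91% of all genes, 2.17% higher. The median of the 15 was -0.01 in UNC against DMSO, that of all genes.

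The ANXA2 tetramer is known as a surface receptor for plasminogen and its activator, and formyl peptide receptors bind ANXA1. Of 11 genes on that list 7 were tested, and by group alone 1 fell in UNC against DMSO, where 0.401% of all genes were called lower. PLAUR, the urokinase receptor, fell by 0.79 (SE 0.131, adjusted p = 0.0198), at 5.29, 4.38 and 4.70 CPM in PROTAC, 3.79, 3.70 and 3.86 CPM in UNC, and 6.31, 6.23 and 7.19 CPM in DMSO. The 3 groups did not overlap. The call was lost without each DMSO library, UNC 2 or UNC 3, at -0.83 to -0.73, and held without each library with the block. With the block PLAT, tissue plasminogen activator, fell as well (-0.54, adjusted p = 9.83e-05), and PLAUR fell in PROTAC against DMSO (-0.44, adjusted p = 0.0202). With the block 6.46% of all genes fell in UNC against DMSO, and 2.99% were called in PROTAC against DMSO. PLAT (0.42, adjusted p = 0.00677) and SERPINE2 (0.23, adjusted p = 0.0326), a protease inhibitor, were higher in PROTAC than in UNC with the block. That fit called 2.17% of all genes higher. The median of the 7 was -0.17 in UNC against DMSO. PLG had no count in any library, and the receptor genes FPR1, FPR2 and FPR3 were too low to test.

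Of 12 genes that encode textbook calpain substrates, all were tested and 0 were called by group alone or by DESeq2 in any comparison. Few genes were called at all: by group alone 0% in PROTAC against DMSO, 0.719% in UNC against DMSO and 0.00827% in PROTAC against UNC. In the same order DESeq2 called 20 of 18483, 760 of 19975 and 126 of 22958 genes. Nothing is therefore read from the 0 calls. At an unadjusted p under 0.05 by group alone there were 0 in PROTAC against DMSO, 3 in UNC against DMSO and 4 in PROTAC against UNC. The shares of all genes at that p were 4.96%, 12.4% and 4.70%. With the block 4 fell in UNC against DMSO: the intermediate filament gene VIM (-0.33, adjusted p = 0.00104) and the adhesion and cortex genes PXN (-0.28, adjusted p = 0.000123), VCL (-0.24, adjusted p = 0.00161) and EZR (-0.18, adjusted p = 0.0182). That fit called 6.46% of all genes lower. VIM was at 27.2, 23.9 and 25.1 CPM in PROTAC, at 23.4, 21.8 and 18.4 CPM in UNC, and at 27.0, 25.6 and 27.1 CPM in DMSO. UNC lay below both other groups, and with the block VIM (0.26, adjusted p = 0.0287), VCL (0.22, adjusted p = 0.0111) and PXN (0.18, adjusted p = 0.036) were higher in PROTAC than in UNC. In that comparison 2.17% of all genes were called higher. The medians of the 12 were 0.02 for PROTAC against DMSO and -0.08 for UNC against DMSO.

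Markers of other cell types also differed between UNC and DMSO, most of those called with the block being lower and some higher. The sums of the trophoblast, amnion and endoderm lists overlapped between these groups. The 7 pluripotency markers of the labelled cell type were all tested and summed to 5226 to 5515 CPM in PROTAC, 5258 to 5680 CPM in UNC and 4844 to 5181 CPM in DMSO. With the block LIN28A, SOX2 and CRIPTO, also called TDGF1, rose in UNC against DMSO and SOX2 rose in PROTAC against DMSO, with list medians of 0.10 and 0.05. The counts of calls for UNC against DMSO in this paragraph stand beside 0.719% of all genes called by group alone and, with the block, 7.04% higher and 6.46% lower. Of 9 trophoblast markers tested, GATA3 was called lower in UNC against DMSO by group alone, and with the block 1 rose and 6 fell. The list of 10 summed to 598 to 628 CPM in PROTAC, 498 to 584 CPM in UNC and 546 to 645 CPM in DMSO, and none was at 0 in a whole group. KRT18 and TFAP2C carry most of that sum. The median of the 9 was -0.95 in UNC against DMSO, with GATA3 at 36.4%, TFAP2A at 32.0% and GATA2 at 47.7% of the DMSO mean, and -0.05 in PROTAC against DMSO. In UNC against DMSO 2 of the 9 had positive differences. Of 7 fibroblast markers tested, TAGLN, MMP2 and COL1A1 fell by group alone, and with the block 1 rose and 5 fell. The fibroblast list of 10 summed to 511 to 543 CPM in PROTAC, 423 to 474 CPM in UNC and 536 to 561 CPM in DMSO. LUM was at 0 in every library, and COL3A1 and DCN were at 0 in all DMSO libraries. The median of the 7 fibroblast markers was -0.66 in UNC against DMSO and -0.06 in PROTAC against DMSO. Of 7 amnion markers tested, WNT6 fell and BMP4 rose by group alone, and with the block 1 rose and 3 fell. The amnion list of 8 summed to 21.6 to 26.7 CPM in PROTAC, 19.9 to 26.2 CPM in UNC and 19.5 to 21.4 CPM in DMSO, and the endoderm list of 6 to 4.83 to 6.63 CPM in PROTAC, 4.23 to 7.17 CPM in UNC and 4.99 to 9.21 CPM in DMSO. Medians of the 7 amnion markers were -0.49 in UNC and -0.19 in PROTAC against DMSO. Those of the 3 endoderm markers tested were -1.14 and -0.84, and APOA1 was called lower in UNC with the block. The part of these cell types in the values of ANXA1, ANXA3, S100A6 and CAPN2 was not tested.

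The genes whose profile over the 9 libraries was most like that of CAPN2 were IMPDH1 (root mean square difference of centred log2 CPM 0.0911), the actin-severing protein gene GSN (0.127), BTG2 (0.137), the metalloproteinase inhibitor gene TIMP3 (0.153) and AGAP3 (0.162), among 10610 genes with a mean of at least 10 CPM. Its partner CAPNS1 ranked 6645 in likeness to CAPN2, at 0.368 against a median of 0.354. For ANXA2 the nearest were MRPL51 (0.0476), GLA (0.0491), RAB19 (0.0511), SLC35F6 and CAP1 (0.0522 each), and its partner S100A10 ranked 965 (0.0958, median 0.140). CAPNS1 ranked 2000 for CAPN1 (0.0819, median 0.120). All these profiles share the same 9 libraries and their scaling.

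Library totals ran from 31651742 to 101081643 counts, and mitochondrial transcripts took 3.21% to 3.68% in PROTAC, 3.33% to 4.66% in UNC and 4.14% to 5.12% in DMSO. All DMSO libraries thus lay above all PROTAC libraries in this share, as they lay below them for ANXA5 and S100A11, and its part in those values was not tested. The lowest of the 10 genes, S100A6, rested on 2411 counts over all libraries. Entries that overlap these genes on the opposite strand held at most 0.539% of a gene's counts, other than CAPN1-AS1 with 1.27% of those of CAPN1, and since the strand setting of the counting is not given in the sources used here, these reads cannot be told apart. A search by symbol found no entries for pseudogenes such as ANXA2P2 and S100A11P1. How reads of such copies were counted is not given, so ANXA2 and S100A11 are uncertain to the extent that reads were split with them.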

How the data were processed

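RNA of 9 libraries was sequenced, 3 per group, and groups and replicate numbers were taken from the sample titles. Per the labels' protocols ribosomal RNA was depleted, but the labels give the molecule as polyA RNA, so which transcripts were captured is uncertain. The submitters' processing notes name Trim Galore 0.6.10, HISAT2 2.2.1 and the build GRCh38. How reads were counted, on which annotation and with which strand setting, is not given in the sources used here. In whole numbers per gene, the authors deposited read counts without normalisation for 56312 entries, of which 5 without an identifier (PFKFB genes by symbol) held 0.00651% to 0.0103% of counts and stayed in the fit.

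The 10 genes, the lists of related genes, partners, substrates and markers, and the tests were chosen with earlier results of these data known. Counts were fitted with edgeR 4.0.16 (R 4.3.3), using TMM factors, filterByExpr by group, which left 24187 genes, and a robust quasi-likelihood model of group over all 9 libraries. Two-sided p-values were adjusted over these genes with Benjamini-Hochberg, calls were made at 0.05, and every adjusted p in the text is from this tool. The self-test on simulated counts ran the same fit. Up to 4 genes per list and comparison with the largest differences among those called are named, beside the genes of that list a sentence needs. Other genes named, CAST among them, were chosen after their values were seen. Likeness was the root mean square difference of centred log2 CPM with a prior count of 2.

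The fit with the replicate number as a block was the alternative. Deviations from the group means were correlated between libraries that share a number (9 correlations, 0.106 to 0.472), against -0.324 to 0.0753 for 18 pairs with different numbers. All were above 0.1, so values with the block are given where they change a call. The design text says that the experiment was done independently 3 times, and the labels do not say that a number marks one such experiment in every group. The p-values weigh a group difference against the spread between these libraries. With the block that spread is what remains after the replicate number is taken out. The common coefficient of biological variation came to 13.2% (6 residual degrees of freedom) and, with the block, to 6.09% (4). Replicates of a group differed beyond counting noise in every pair (chi-square over degrees of freedom 10.5 to 34.4). Other alternatives were DESeq2 1.42.0, RLE, upper-quartile and library-size scaling, no filter, a filter of 1 CPM in 3 libraries, a fit of the 6 libraries compared, and leaving out each library. Promoter sequences are from RefSeq, and all 10 genes matched.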

Additional observations from a re-analysis of the deposited data

How the results depend on the processing

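Counts of called genes moved with the setting, among the 10 genes and over all genes alike, so nothing is read from them about the 10. Of the 10 genes, 2 were called in UNC against DMSO, but 5 with the replicate block, 5 with DESeq2, 6 without a filter on low counts, 0 to 4 by group alone and 5 to 6 with the block when a library was left out. In PROTAC against DMSO the count was 0, but 2 with the block, 0 by group alone and 0 to 1 with the block when a library was left out. In PROTAC against UNC it was 1, but 3 with the block, 3 with DESeq2, 4 without a filter, 0 with RLE scaling, 0 with the 1 CPM filter and 0 with the 6 libraries compared, and 0 to 1 by group alone and 2 to 4 with the block when a library was left out. Of the 24 other family genes, 1 was called in UNC against DMSO, but 8 with the block, 3 without a filter, 1 by group alone and 4 to 10 with the block when a library was left out. In PROTAC against UNC 0 were called, but 2 with the block, 2 with DESeq2, 1 without a filter, 0 by group alone and 1 to 2 with the block when a library was left out. The cause was not tested. Leaving out a library lowered some counts and raised others. Over all genes by group alone, the 174 calls in UNC against DMSO, of 24187 genes tested, became 27 without UNC 3 and 277 without UNC 1. DESeq2 called 760 of 19975 genes there, and the fit without a filter 834 of 39372. In PROTAC against DMSO 0 genes were called by group alone and 724 with the block. Over all genes, 77 were called higher and 97 lower in UNC against DMSO, but 41 and 81 with library-size scaling and 1703 and 1562 with the block. By group alone 2 genes were called in PROTAC against UNC, against 126 with DESeq2, 246 without a filter and 703 with the block. It was 1 gene with RLE scaling, 1 with the 1 CPM filter and 0 with the 6 libraries compared.

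Values near 0 changed sign. CAPN1 in UNC against DMSO was -0.00039 with the block, -0.020 with upper-quartile scaling, -0.031 with library-size scaling and -0.0056 with the 1 CPM filter. Leaving out a library gave ranges that cross 0, by group alone or with the block. In UNC against DMSO they were -0.13 to 0.064 for ANXA2, -0.025 to 0.098 for S100A10, -0.038 to 0.073 for CAPN1 and -0.0036 to 0.17 for CAPNS1. In PROTAC against DMSO they were -0.047 to 0.44 for ANXA1, -0.040 to 0.16 for ANXA2, -0.41 to 0.011 for ANXA3, -0.034 to 0.35 for S100A6, -0.016 to 0.20 for S100A10, -0.0017 to 0.10 for CAPN2 and -0.10 to 0.061 for CAPNS1. In PROTAC against UNC they were -0.0038 to 0.17 for ANXA2, -0.064 to 0.15 for S100A10 and -0.033 to 0.079 for CAPN1. The directions of ANXA1, ANXA3, S100A6, CAPN2, ANXA5 and S100A11 in UNC against DMSO held under every alternative run. With 3 libraries a group, small differences may have been missed, and depth limits the genes under 1 CPM.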
